A study of Mus musculus with 40 samples.

Results

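Kidneys from mice lacking the EGF receptor in endothelial cells (EC-EGFR-KO) were compared between a high-fat diet (HFD) and a standard diet (SD). The 10 libraries, 5 for each diet, were taken by their labels from the 40 libraries of aorta and kidney in the series. HFD libraries carry the names a1 to a5 and SD libraries a6 to a10. All of these mice were on a C57BL/6 background and carried EGFR flox/flox alleles and Tek-cre, in which the Tie2 promoter drives the recombinase. Tie2 is also active in blood-forming cells, so the promoter alone does not restrict the deletion to endothelium. The EC-EGFR-WT controls carried the recombinase without loxP sites. Their kidneys were fitted together with the KO kidneys, and results from them are given only beside those of KO. Fat supplied 60% of the energy of HFD and 10% of that of SD. HFD was fed alone from 6 weeks of age for 18 weeks, after 7 days on an equal mixture of both diets that began at a mean age of 5 weeks. Sex, and the hour at which kidneys were taken, are not given in the sources used here.

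The kidney filters plasma and then recovers most of the filtrate in the proximal tubule, whose cells burn fatty acids, make glucose and secrete organic ions through a dense set of transporters. Many of these transporters and enzymes differ between male and female mice and answer to sex steroids. EGF is itself made in the distal nephron, and its receptor sits on tubular cells as well as on vessels, so whole kidney keeps Egfr RNA after an endothelial deletion. A fatty diet supplies substrate for oxidation, and the SREBP factors govern the synthesis of fatty acids and sterols.

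Total counts were 19643033 to 24311482 in 9 of the 10 libraries and 48788716 in a1. Library a1 and the WT HFD library a12 were near-identical, with a median chi-square over 16697 genes of 0.0269, where counting noise alone gives 0.455 and the next closest of 190 library pairs gave 1.62. Which of the mice this library came from cannot be told apart, and results are therefore given with and without it. Immediate-early genes, which rise within minutes of a stimulus, were high in the SD libraries a8 and a9, where their 21 tested members summed to 3384 and 3379 FPM (TMM-normalized counts per 1000000) against 308.7 to 394.7 FPM in the other 8 libraries. Library a9 also had the lowest proximal tubule score of the 10, at -0.41. A list's score is the mean over its members of log2(FPM + 0.5), centred on all 20 kidneys. Markers of the tissue were present in both diets. Slc34a1, the main phosphate transporter of the proximal tubule, stood at 5413 ± 309.6 FPM (SD, n = 5) under HFD and 5462 ± 584 FPM under SD, and the endothelial marker Pecam1 at 59.7 ± 3.28 and 56.3 ± 10.1 FPM. In every library 7733 genes were at 0 counts, those at the end of chromosome 8 and all of chromosomes 9, MT, X and Y, and these could not be examined.

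Egfr (ENSMUSG00000020122, chr11:16752203-16918158 in GRCm38), the targeted gene, was counted in all 10 kidneys. It was at 38.5, 34.6, 60.5, 37.4 and 40.4 FPM under HFD and at 49.1, 55.3, 55.6, 47.8 and 57.6 FPM under SD, each series in the order of the library names. The deletion takes out exon 1, so counts summed over the whole gene, and over cells without the recombinase, do not check it. Between diets its log2 fold change was -0.33 (standard error 0.17, adjusted p = 0.313), and a3 overlapped the SD libraries. Against WT the log2 fold change of KO was -0.09 under SD (adjusted p = 1.00) and 0.06 under HFD (adjusted p = 0.947), or 0.08 without a1 and a12. Under HFD the sign of this value rested on single libraries, with -0.09 without a3 and -0.09 without the WT library a15.

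HFD changed 344 of 15943 genes tested in KO kidneys (2.16%), of which 196 were higher (1.23%) and 148 lower (0.928%). A gene was called when its adjusted p from edgeR's quasi-likelihood test was under 0.05, its fold change over 1.5 and its mean over 5 FPM with at least 1 of both diets. In 302 of the 344 genes the 5 HFD libraries did not overlap the 5 SD libraries, and over all genes tested 3.74% lay wholly above and 4.07% wholly below. From here on, levels are given as mean ± SD over 5 libraries, or for each library in the order of its name, and a value in parentheses before an adjusted p is the log2 fold change of HFD against SD. The shares called over all genes tested, 1.23% higher and 0.928% lower, are the background for each count of called genes in a list. Changes were mostly moderate. A fold change over 2 was reached by 77 higher and 46 lower genes, and one over 4 by 13 and 4. Of the called genes 327 were protein-coding. By the adjusted p alone 1011 genes passed (6.34%), and 49.8% of all genes tested had a log2 fold change above 0. Without a1, 336 of 16101 genes were called (2.09%), 193 higher (1.2%) and 143 lower (0.888%), and 310 genes were called in both fits. Without a8 and a9, 291 of 16349 were called (1.78%), 176 higher (1.08%) and 115 lower (0.703%), with 264 shared.

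**Figure D1:**
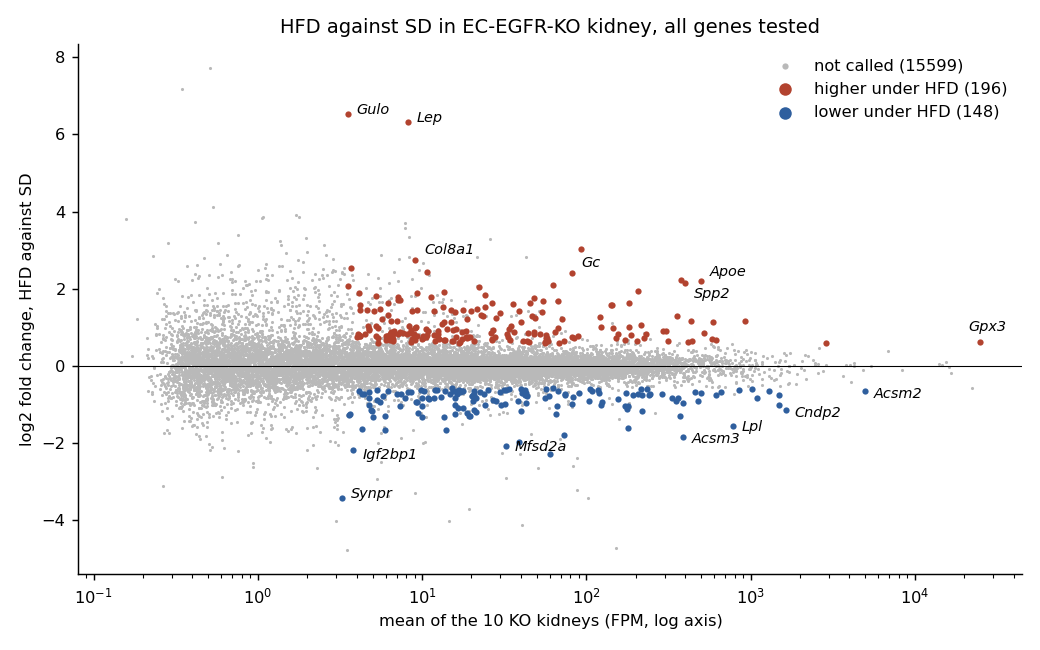
Log2 fold change of HFD against SD in EC-EGFR-KO kidney for every gene tested, against its mean level in the 10 KO kidneys (FPM, log axis). Red points are the 196 genes called higher, blue points the 148 called lower and grey points the 15599 not called; Gulo and Lep lie far above the other called genes, and Gpx3 is the called gene with the highest level.

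The largest fitted increase among the called genes was that of Gulo. This gene (ENSMUSG00000034450, chr14:65986786-66009207), whose product carries out the last step of vitamin C synthesis, had 8 raw counts over the 5 SD libraries and 879 over the 5 HFD libraries. Its level was 5.18, 10.9, 5.56, 8.59 and 4.698 FPM under HFD and at 0, 0.206, 0.0466, 0 and 0.0898 FPM under SD, so that the gene was at or near 0 in every SD kidney and present in every HFD kidney. Per count, the HFD level was 92.3 times the SD level (exact 95% interval 46.6 to 214, counting error only). Fitted on the log2 scale, the difference was 6.52 (standard error 0.52, adjusted p = 2.62e-07), and 6.61 without a1. Of the 9 tested genes of vitamin C synthesis and transport Gulo was the 1 called.

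Gc (chr5:89417522-89457898), the vitamin D-binding protein of plasma, was at 106, 132, 144, 148 and 162 FPM under HFD and at 25.7, 27.6, 27, 18.99 and 30.3 FPM under SD. The difference on the log2 scale was 2.42, with a standard error of 0.12 (adjusted p = 2.99e-10). Apoe (chr7:19696109-19699188), apolipoprotein E of remnant particles, was at 763, 898, 579, 1042 and 812 FPM under HFD and at 190.2, 162, 208, 128 and 202 FPM under SD (2.2, standard error 0.15, adjusted p = 2.03e-08). For both genes the lowest HFD kidney was more than 2 times the highest SD kidney. Spp2, a secreted phosphoprotein of plasma and bone, went from 148 ± 40.2 to 652 ± 101 FPM (means and SDs of 5), which is 2.14 on the log2 scale (adjusted p = 1.78e-05). Its lowest SD value, 77.4 FPM, was in a9, and the next lowest was 154 FPM.

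Further increases with a log2 fold change of 2 or more were in Col8a1, Cyp2c69, Ces1g, Prlr and Cox6a2. Col8a1, a short-chain collagen of basement membranes, rose from 2.36 ± 0.923 to 15.8 ± 6.74 FPM (2.75, adjusted p = 1.17e-04). Ces1g, a carboxylesterase that hydrolyses lipid esters, rose from 23.9 ± 7.44 to 102 ± 15.3 FPM (2.1, adjusted p = 0.00124). Cox6a2, the muscle form of a cytochrome c oxidase subunit, was at 8.32, 4.81, 3.24, 2.45 and 9.78 FPM under HFD and at 1.47, 1.73, 1.07, 1.22 and 1.301 FPM under SD (2.07, adjusted p = 0.00785). Its HFD levels were spread widely, and its call depended on single libraries, with 1.8 and a mean no longer over 5 FPM without a5, and an adjusted p of 0.0845 without a8 and a9. In absolute level the largest increase was that of Gpx3, the glutathione peroxidase that the kidney releases into plasma. It was at 31510, 31360, 27610, 30050 and 29090 FPM under HFD and at 21730, 18930, 21770, 14610 and 21100 FPM under SD, without overlap (0.61, adjusted p = 8.19e-04). Without a9 the log2 fold change was 0.52, below the fold change of 1.5.

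**Figure D2:**
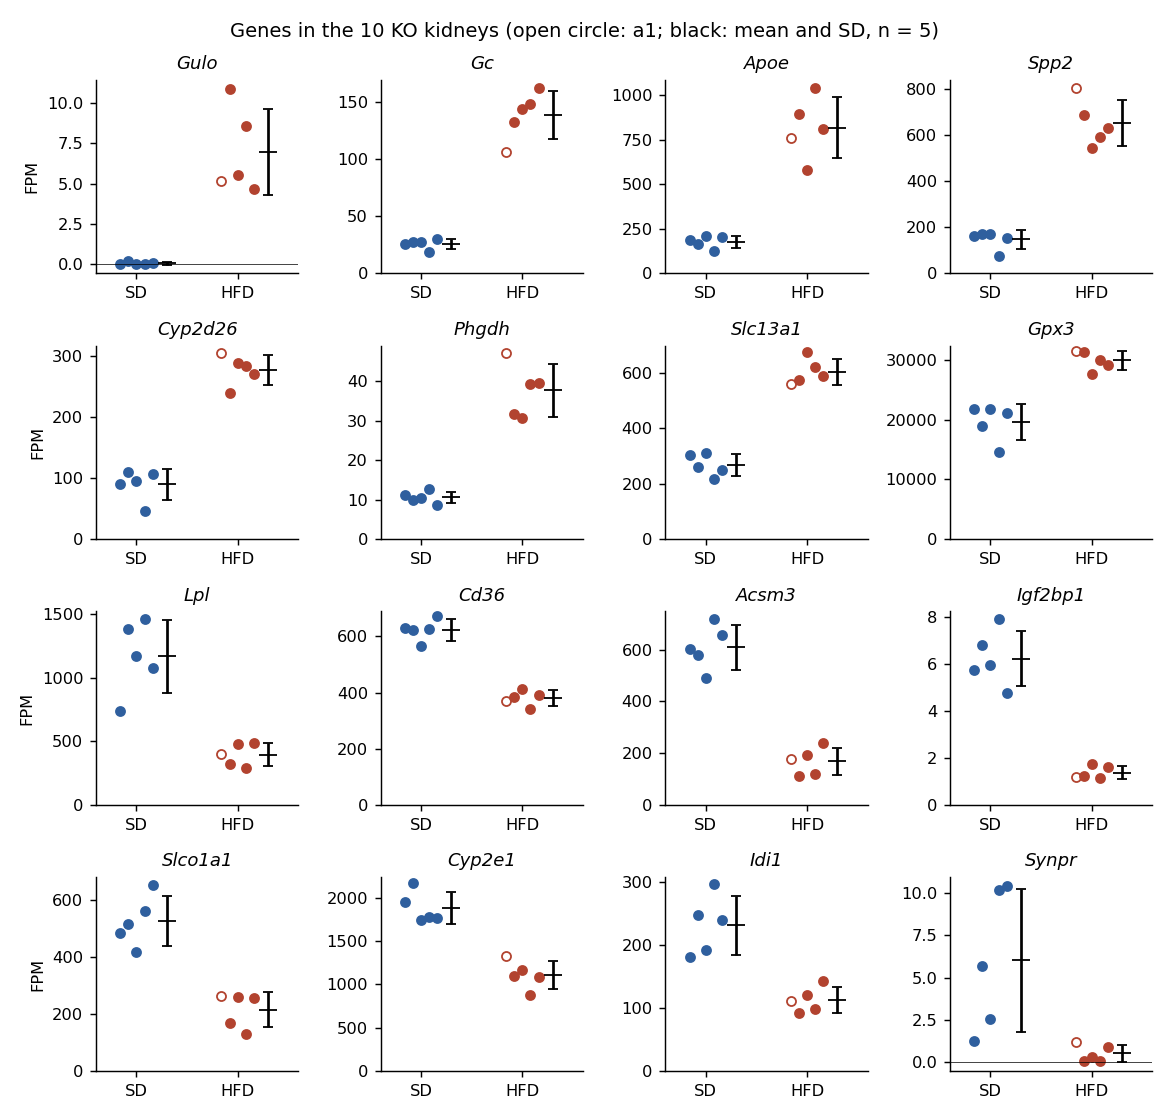
Levels of 16 genes in each of the 10 KO kidneys (FPM, linear axes from 0), SD in blue and HFD in red, with the mean and SD of 5 libraries in black and a1 as an open circle. In each of the 16 genes the libraries of both diets do not overlap; Gulo is at or near 0 in every SD kidney.

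Among the decreases, Lpl (chr8:68880491-68907448), the lipoprotein lipase that frees fatty acids from circulating triglyceride, was at 405, 319.9, 482, 288 and 487 FPM under HFD and at 739, 1387, 1176, 1464 and 1076 FPM under SD. The highest HFD kidney was below the lowest SD kidney, and the log2 fold change was -1.56 (standard error 0.21, adjusted p = 7.40e-05). Acsm3 (chr7:119760923-119787513), a medium-chain acyl-CoA synthetase, fell from 609 ± 85.98 to 168 ± 53.5 FPM (-1.85, adjusted p = 2.64e-06), and its relative Acsm2 from 6080 ± 364 to 3886 ± 685 FPM (-0.65, adjusted p = 2.67e-04). Without a4 the change of Acsm2 was -0.57, under the fold change of 1.5. Cndp2, a dipeptidase that splits carnosine and other dipeptides, fell from 2256 ± 231 to 1023 ± 129.9 FPM (-1.14, adjusted p = 8.34e-06).

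Other strong decreases were in genes of low or moderate level. Igf2bp1 (chr11:95957163-96005940), an RNA-binding protein best known from fetal tissue, was at 1.18, 1.24, 1.75, 1.14 and 1.61 FPM under HFD and at 5.72, 6.81, 5.96, 7.898 and 4.76 FPM under SD (-2.17, standard error 0.21, adjusted p = 1.64e-06). No SD kidney came near an HFD kidney. Of the 26 genes tested for insulin and IGF signalling it was the 1 called. Synpr, a synaptic vesicle protein, had the largest fitted change of the named decreases (-3.43, standard error 0.80, adjusted p = 0.0128), but its SD levels of 1.22, 5.696, 2.56, 10.2 and 10.4 FPM were far apart, and the lowest of them lay just above the 1.201 FPM of a1. Without a9 or without a10 its SD mean was no longer over 5 FPM. Mfsd2a, a carrier of lysophosphatidylcholine, fell from 52.5 ± 19.7 to 12.4 ± 8.28 FPM (-2.07, adjusted p = 0.0065), with 87.2 FPM in a8 and at most 47.4 FPM in the other SD libraries. Without a8 and a9 its log2 fold change was -1.78 and its adjusted p 0.0525. Gm6300 (-1.98), the serine protease gene Tmprss9 (-1.67), the chromatin regulator gene Epop (-1.64) and the complement gene C4a (-1.33) were also called. Their groups did not overlap, and each was also called without a1. The deposited annotation gives Gm6300 as an unprocessed pseudogene and C4a as a long non-coding RNA. C4a shares most of its sequence with its neighbour C4b, so that reads could be split between both.

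All 19 tested genes of sterol synthesis and uptake had a log2 fold change below 0, from -1.04 to -0.10 with a median of -0.30, where the median over all genes tested was -0.0006. Of the 19, 5 were called lower and 0 higher, 4 without a1 and 3 without a8 and a9. Idi1, the isopentenyl diphosphate isomerase, was at 111, 91.1, 120.5, 98.9 and 143 FPM under HFD and at 180.1, 247, 193, 297 and 240.1 FPM under SD, with no overlap (-1.03, adjusted p = 7.96e-04). Cyp51, the lanosterol demethylase, fell from 305 ± 37.1 to 180.3 ± 24.5 FPM (-0.76, adjusted p = 4.51e-04), and Sqle, the squalene epoxidase, from 93.4 ± 16.1 to 55.3 ± 4.11 FPM (-0.76, adjusted p = 6.28e-04). Insig1, which retains the SREBP escort protein in the endoplasmic reticulum, fell from 89.3 ± 33.5 to 43.5 ± 7.79 FPM (-1.04, adjusted p = 0.0209). It was at 147 FPM in a9 and at most 87.7 FPM in the other SD libraries. Its adjusted p was 0.0707 without a9, 0.0569 without a2 and 0.0613 without a4.

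The promoters of Idi1, Cyp51 and Insig1 are shown because these genes fell together. They are the called members of the sterol list with a RefSeq promoter in the table used (GRCm38.p6). Each line gives the 250 bases before the start of transcription, on the strand of the gene, with CCAAT or its reverse complement ATTGG in capitals. CCAAT is the box bound by NF-Y, a partner of SREBP at sterol genes. The windows are chr13:8885356-8885605 (+) for Idi1, chr5:4104698-4104947 (-) for Cyp51 and chr5:28071162-28071411 (+) for Insig1.
Idi1: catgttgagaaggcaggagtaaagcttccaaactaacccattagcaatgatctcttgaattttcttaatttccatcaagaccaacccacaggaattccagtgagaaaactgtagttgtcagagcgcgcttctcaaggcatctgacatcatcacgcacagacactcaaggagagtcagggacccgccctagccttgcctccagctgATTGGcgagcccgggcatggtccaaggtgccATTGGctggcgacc
Cyp51: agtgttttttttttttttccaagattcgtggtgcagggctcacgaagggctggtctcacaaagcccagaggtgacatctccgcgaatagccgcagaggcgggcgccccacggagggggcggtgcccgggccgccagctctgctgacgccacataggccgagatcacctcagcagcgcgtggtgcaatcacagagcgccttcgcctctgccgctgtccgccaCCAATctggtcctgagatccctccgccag
Insig1: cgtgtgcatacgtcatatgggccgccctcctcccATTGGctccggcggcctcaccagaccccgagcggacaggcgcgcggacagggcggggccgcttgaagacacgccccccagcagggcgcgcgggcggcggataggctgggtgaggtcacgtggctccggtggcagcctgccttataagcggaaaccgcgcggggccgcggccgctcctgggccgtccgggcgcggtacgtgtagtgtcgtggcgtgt
Of the 19 sterol genes tested, 12 were in the table, with 15 promoters in all. CCAAT was on either strand of 12 of the 15 promoters and of 33.8% of all 32851 promoters. The sterol response element TCACCCCAC was in 1 of the 15, that of Hmgcs1, and in 0.496% of all. CACGTG was in 3 of the 15 and in 6.02% of all. Motifs were searched on both strands, and a match describes the letters in this window only.

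Fatty acid genes did not move in a single direction. Of 27 tested PPAR-alpha targets 2 were called higher and 2 lower, against 1.23% and 0.928% of all genes tested. Their median log2 fold change was 0.07. Cd36, the fatty acid translocase, was at 368, 386, 414, 341 and 392 FPM under HFD and at 629, 623, 564, 625 and 672 FPM under SD. The groups lay far apart (-0.71, standard error 0.07, adjusted p = 2.40e-06). Ehhadh, the peroxisomal bifunctional enzyme, fell from 817 ± 51.1 to 511 ± 53.2 FPM (-0.68, adjusted p = 2.57e-04). Both are genes that PPAR-alpha is known to induce. Acot3, a peroxisomal thioesterase, had 9.49 ± 2.44 FPM under SD and 15.5 ± 2.77 FPM under HFD (0.71, adjusted p = 0.0434), and its call was lost in 8 of the 10 fits without 1 library, with an adjusted p of 0.0771 without a1. In beta-oxidation 1 of 23 tested genes was called, Acaa2, the last enzyme of the mitochondrial cycle, which rose from 205 ± 36.5 to 379.7 ± 32.9 FPM (0.89, adjusted p = 2.73e-04). The median of that list was 0.04. Cpt1a, which admits fatty acids to the mitochondrion, was at 412 ± 56.4 FPM under SD and 360 ± 31.3 FPM under HFD (-0.19, adjusted p = 0.297).

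In fatty acid synthesis 0 of 22 tested genes were called by edgeR's test, 2 had an adjusted p under 0.05 with a smaller fold change or level, and 11 lay above 0. Values for Fasn, the fatty acid synthase, were 73.8 ± 17.3 FPM under SD and 59.7 ± 13.3 FPM under HFD (-0.31, adjusted p = 0.648). In ketone body metabolism 1 of 8 tested genes was called higher and 1 lower. Bdh1, which interconverts both ketone bodies, was the lower one and fell from 255 ± 28.7 to 155 ± 25.9 FPM (-0.72, adjusted p = 4.51e-04). Among 24 genes of lipid droplets, lipases and lipoproteins, 3 were called higher and 1, Lpl, lower, with a median of 0.32. Beside Apoe, these were Plin3, a lipid droplet coat protein that rose from 45.6 ± 2.06 to 70.6 ± 4.43 FPM (0.63, adjusted p = 2.40e-06), and Mttp, which loads triglyceride onto apolipoprotein B and rose from 24.9 ± 4.87 to 41.9 ± 6.201 FPM (0.75, adjusted p = 0.00388). In Mttp a3 was the highest HFD library at 52.7 FPM, with at most 40.6 FPM in the others. In Plin3 the 5 HFD kidneys lay between 63.9 and 75.8 FPM and the 5 SD kidneys between 43.4 and 47.7 FPM.

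**Figure D3:**
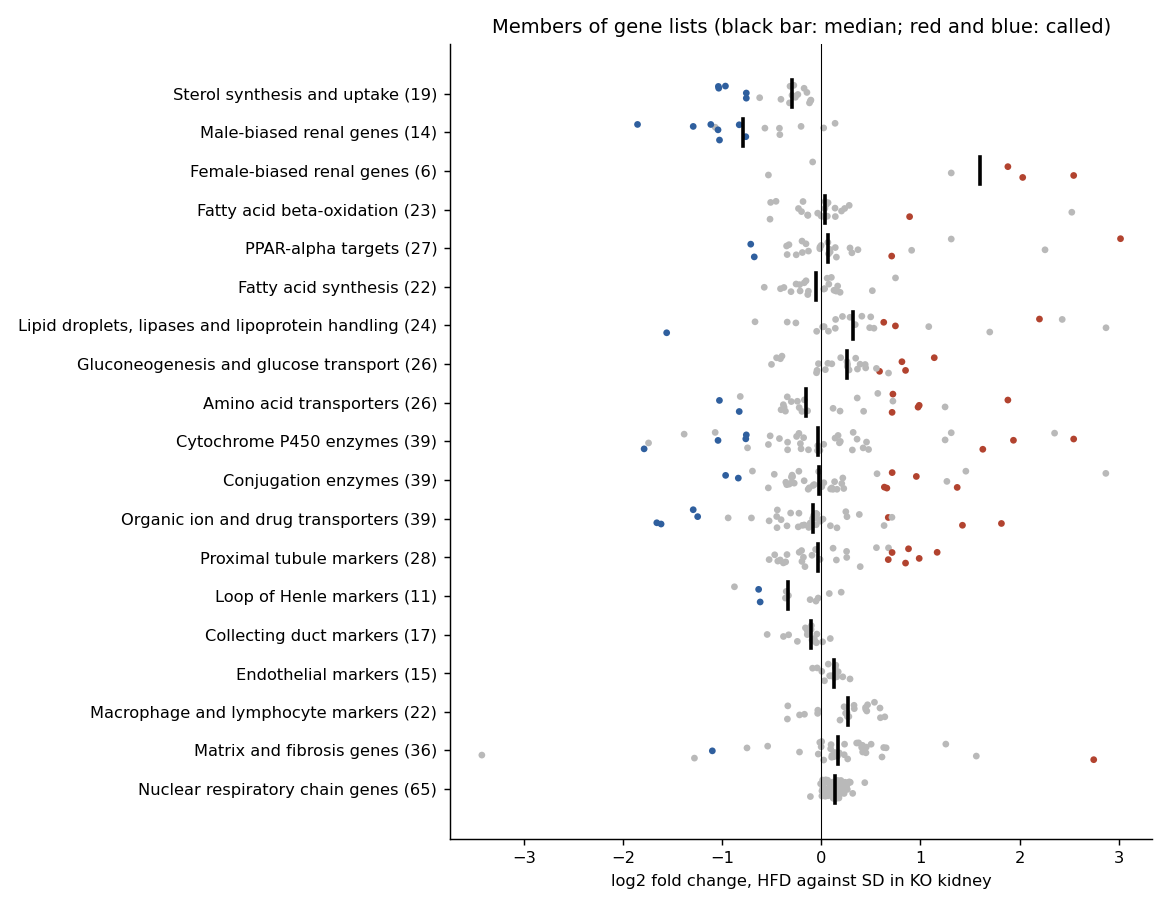
Log2 fold change of HFD against SD in KO kidney for the tested members of 19 gene lists, with the number tested in parentheses, the median as a black bar, and called genes in red (higher) or blue (lower). All 19 sterol genes and 12 of 14 male-biased genes lie below 0, and 63 of 65 genes of the respiratory chain lie above 0 with none called.

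Of 14 tested genes known to be higher in the kidneys of male mice, 7 were called lower and 0 higher, with a median log2 fold change of -0.79, and 8 were called lower without a1. The other 7 did not pass, and 2 of them lay above 0. Odc1, the rate-limiting enzyme of polyamine synthesis and an androgen target in kidney, was at 1225, 911, 896, 806 and 1088 FPM under HFD and at 1728, 1938, 1850, 2202 and 2316 FPM under SD. The groups did not overlap, and the log2 fold change was -1.03 (standard error 0.15, adjusted p = 1.68e-04). Slco1a1, an organic anion carrier, fell from 525 ± 88.3 to 215 ± 61.3 FPM (-1.29, adjusted p = 1.73e-04), and Hsd11b1, which reactivates glucocorticoids, from 243 ± 49.5 to 112 ± 19.9 FPM (-1.11, adjusted p = 2.32e-05). Cyp2e1, Cyp7b1, Slc7a13 and Acsm3 were the other called members. Srd5a2, the 5-alpha reductase that makes dihydrotestosterone and not itself on that list, fell from 14.4 ± 3.07 to 5.69 ± 1.02 FPM (-1.33, adjusted p = 6.75e-05).

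Of 6 tested female-biased genes 3 were called higher and 0 lower, and 2 were called higher without a8 and a9. In all, 4 of the 6 lay above 0, and the lowest log2 fold change was -0.53. The summed level of the 6 genes was not higher under HFD, with 454.6 to 886.3 FPM against 691 to 1114 FPM under SD. Prlr, the prolactin receptor, was at 21.9, 52.2, 26.6, 48.4 and 28.1 FPM under HFD and at 16.5, 5.04, 9.03, 3.15 and 9.78 FPM under SD (2.03, standard error 0.40, adjusted p = 0.00341). Its groups did not overlap, although a1 and a6 lay close. Cyp2c69, a cytochrome P450, rose from 1.08 ± 0.553 to 6.29 ± 0.95 FPM (2.54, adjusted p = 2.49e-05). Slc7a12, an amino acid carrier, had 3.98 ± 2.35 FPM under SD and 14.6 ± 5.77 FPM under HFD (1.88, adjusted p = 0.0442), and it lost its call in 8 of the 10 fits without 1 library. The male-biased score was -0.64 to -0.17 in the HFD kidneys and 0.23 to 0.47 in the SD kidneys. Whether the sex of the mice differed between the diets was not tested.

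Of 28 tested markers of the proximal tubule 6 were called higher and 0 lower (5 without a1), with a median log2 fold change of -0.04. Their summed level was 25830 to 27030 FPM under HFD and 25400 to 29500 FPM under SD. In whole tissue, fewer cells of a type and less RNA per cell cannot be told apart. Slc13a1, the sodium-sulfate cotransporter, was at 560.2, 573, 675, 621 and 588 FPM under HFD and at 305, 259, 312, 218 and 248 FPM under SD (1.17, standard error 0.11, adjusted p = 1.07e-06). All HFD kidneys were well above all SD kidneys. Slc22a8, the organic anion transporter OAT3, rose from 474 ± 66.5 to 757 ± 78.8 FPM (0.68, adjusted p = 0.00536), whereas Slc22a6, OAT1, had 1116 ± 66.2 FPM under SD and 878 ± 80.5 FPM under HFD and did not reach the fold change of 1.5 (-0.35, adjusted p = 0.0282).

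In glucose handling 4 of 26 tested genes were called higher and 0 lower, and 3 without a1, with a median of 0.26. G6pc, the catalytic subunit of glucose-6-phosphatase, which releases free glucose, was at 628, 701, 1005, 949 and 778 FPM under HFD and at 369, 433, 355, 157 and 530.1 FPM under SD. The groups did not overlap (1.14, adjusted p = 0.00438). Slc5a2, the glucose carrier SGLT2, rose from 373 ± 130.3 to 672 ± 80.3 FPM (0.85, adjusted p = 0.0128), and Slc5a10, a carrier of mannose and fructose, from 167 ± 24.7 to 294 ± 21.96 FPM (0.81, adjusted p = 8.74e-04). In a9 the levels of G6pc and Slc5a2 were the lowest of the SD libraries and that of Slc5a10 the highest. Pck1, the rate-limiting enzyme of gluconeogenesis, had 2297 ± 497 FPM under SD and 3450 ± 361 FPM under HFD with overlapping groups (0.59, adjusted p = 0.0459), and its call was lost in 8 of the 10 fits without 1 library, with an adjusted p of 0.0782 without a1.

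Amino acid transporters were called higher in 5 of 26 genes and lower in 2, against 1.23% and 0.928% of all genes tested. Slc3a2, the heavy chain shared by several exchangers, was at 289, 264, 268, 276 and 294 FPM under HFD and at 158, 157, 204, 159.8 and 166 FPM under SD (0.72, standard error 0.08, adjusted p = 1.52e-05). The groups did not overlap, and a8 was the highest SD library. Its light chains at the basal side of the tubule also rose, Slc7a8 from 97.3 ± 23.7 to 193 ± 40.2 FPM (0.99, adjusted p = 0.00321) and Slc7a7 from 115 ± 33.3 to 188 ± 14.6 FPM (0.71, adjusted p = 0.00498). Without a9 the change of Slc7a7 was 0.57, under the fold change of 1.5. Slc16a10, a transporter of aromatic amino acids, rose from 45.4 ± 7.62 to 89.3 ± 20.01 FPM (0.98, adjusted p = 6.56e-04). Slc1a4, a carrier of neutral amino acids, fell from 40.9 ± 9.87 to 20.02 ± 2.76 FPM (-1.03, adjusted p = 1.83e-04), and Slc7a13, a cystine carrier, from 1407 ± 142 to 793 ± 156 FPM (-0.83, adjusted p = 6.56e-04).

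Among 39 carriers of organic ions and drugs, 3 were called higher and 4 lower, against 1.23% and 0.928% of all genes tested. Abcb1b, a P-glycoprotein that exports drugs, rose from 10.8 ± 2.56 to 28.9 ± 5.34 FPM (1.42, adjusted p = 3.72e-05). Members of the Slc22 anion carriers moved apart. Slc22a29 rose from 2.31 ± 0.442 to 8.15 ± 0.722 FPM (1.82, adjusted p = 7.58e-05), while Slc22a26 fell from 21.3 ± 3.904 to 6.74 ± 2.07 FPM (-1.66, adjusted p = 8.54e-05). Slc22a7, OAT2, fell from 272 ± 82.7 to 88.7 ± 48.1 FPM (-1.62, adjusted p = 0.0178), and without a9 its adjusted p was 0.0543. Slc22a26 and Slc22a29 have relatives of similar sequence, and how reads with several positions were counted is not given in the sources used here, so the split between them is uncertain.

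Of 39 tested cytochrome P450 genes 3 were called higher and 4 lower, against 1.23% and 0.928% of all genes tested. Cyp2d26 was at 304, 238, 288, 283 and 270.1 FPM under HFD and at 90.5, 109.8, 95.2, 45.9 and 106 FPM under SD (1.63, standard error 0.22, adjusted p = 1.02e-04), and Cyp2d12 of the same cluster fell from 113 ± 50.4 to 32.7 ± 11.5 FPM with overlapping groups (-1.79, adjusted p = 0.00896). In Cyp2d26 the lowest HFD kidney was more than 2 times the highest SD kidney. Cyp2e1, which oxidizes ethanol and ketones, was at 1321, 1095, 1169, 880 and 1082 FPM under HFD and at 1951, 2169, 1741, 1781 and 1762 FPM under SD (-0.76, adjusted p = 9.66e-04). Cyp24a1, which inactivates vitamin D, was at 455, 519, 100.3, 198 and 374 FPM under HFD and at 91.4, 58.5, 133, 91.04 and 55.7 FPM under SD (1.94, adjusted p = 0.0117), and a3 lay below a8. The Cyp2c and Cyp2d genes share much sequence, and their counts are uncertain for that reason.

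Conjugation enzymes were called higher in 5 of 39 genes and lower in 2, against 1.23% and 0.928% of all genes tested. Without a8 and a9, 3 were called higher. Gstm1, a glutathione transferase, fell from 512 ± 62.6 to 262 ± 52.5 FPM (-0.96, adjusted p = 7.09e-05) and Ugt3a1, a sugar transferase, from 465 ± 33.2 to 260.5 ± 43.97 FPM (-0.84, adjusted p = 1.69e-04). Gsto1 rose from 23.1 ± 2.87 to 44.9 ± 4.697 FPM (0.96, adjusted p = 2.48e-05) and Gstt1 from 134 ± 8.32 to 212 ± 21.7 FPM (0.66, adjusted p = 1.18e-04), both glutathione transferases. In each of these 4 genes the libraries of both diets did not overlap. Gpx3 was the 1 called gene among 19 tested genes of oxidative stress defence, whose median was -0.04.

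Serine synthesis genes rose within the list of unfolded protein and amino acid stress genes, in which 3 of 19 were called higher and 1 lower. Phgdh (chr3:98313170-98339990), the first enzyme of serine synthesis, was at 47.1, 31.6, 30.8, 39.2 and 39.6 FPM under HFD and at 11.2, 9.99, 10.4, 12.6 and 8.66 FPM under SD. The lowest HFD kidney was far above the highest SD kidney, a difference of 1.83 on the log2 scale (standard error 0.19, adjusted p = 3.07e-06). Psat1, the enzyme that follows it, rose from 26.1 ± 5.195 to 82.9 ± 16.3 FPM (1.67, adjusted p = 3.98e-05). Sdf2l1, a chaperone cofactor of the endoplasmic reticulum, rose from 8.69 ± 2.29 to 16.2 ± 3.77 FPM (0.90, adjusted p = 0.0156), with an adjusted p of 0.0525 without a4. Ddit4, an inhibitor of mTOR that stress induces, fell from 26.4 ± 12.1 to 11.3 ± 1.46 FPM (-1.22, adjusted p = 0.00612). It was highest in a8 and a9, at 38.97 and 38.9 FPM, and without both its adjusted p was 0.124.

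The promoters of Phgdh and Psat1 are shown as the pair of consecutive enzymes that rose. The same 250 bases and capitals are used, from chr3:98339970-98340219 (-) for Phgdh and, for the first of the starts listed for Psat1, chr19:15925060-15925309 (-).
Phgdh: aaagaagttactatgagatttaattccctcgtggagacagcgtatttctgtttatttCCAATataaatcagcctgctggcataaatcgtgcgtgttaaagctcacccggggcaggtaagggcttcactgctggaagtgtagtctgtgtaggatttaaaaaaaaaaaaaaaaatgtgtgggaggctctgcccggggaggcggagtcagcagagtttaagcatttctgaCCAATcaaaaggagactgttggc
Psat1: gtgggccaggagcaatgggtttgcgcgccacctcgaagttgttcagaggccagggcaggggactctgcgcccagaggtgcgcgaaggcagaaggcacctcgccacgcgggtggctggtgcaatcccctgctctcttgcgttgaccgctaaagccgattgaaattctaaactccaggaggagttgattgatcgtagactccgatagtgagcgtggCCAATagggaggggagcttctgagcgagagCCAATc
Each holds CCAAT 2 times, counted over both strands. The other start listed for Psat1, not shown, has it 0 times in its 250 bases. The amino acid response motif TGATGNAAT, which 0.816% of all promoters hold, was not among the letters of these windows.

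In the EGF family itself 0 of 9 tested genes were called higher and 2 lower, with a median log2 fold change of -0.59. Egf, made by the thick ascending limb and distal convoluted tubule, was at 692, 878, 899, 848 and 761 FPM under HFD and at 1513, 1126, 1182, 1184 and 1138 FPM under SD. The groups did not overlap (-0.59, adjusted p = 0.0168), but without a1 the adjusted p was 0.0516, and without a6, the highest SD library, it was 0.0579. Nrg1, a ligand of the related ERBB receptors, fell from 12.2 ± 3.36 to 6.41 ± 1.996 FPM (-0.93, adjusted p = 0.0311), with an adjusted p of 0.0723 without a1 and 0.107 without a9. Without a1, and also without a8 and a9, 0 of the 9 genes were called. Slc12a1, the cotransporter NKCC2 of the thick ascending limb, fell from 1024 ± 189 to 668 ± 93.2 FPM (-0.62, adjusted p = 0.0191), and the tight junction gene Cldn19 from 30.8 ± 7.004 to 19.9 ± 5.62 FPM with overlapping groups (-0.63, adjusted p = 0.0323). Without a1 their adjusted p-values were 0.0524 and 0.0573. These were the 2 called of 11 loop of Henle genes tested, and 0 of 11 were called without a1. Umod, the defining marker of the limb, had 2445 ± 387 FPM under SD and 1914 ± 266 FPM under HFD (-0.35, adjusted p = 0.0947).

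Of 23 tested genes of the renin-angiotensin system and volume control, Ace and Slc12a1 were called lower. Ace, the angiotensin-converting enzyme, was at 205, 177, 162, 156 and 224 FPM under HFD and at 304, 291, 274, 348 and 306 FPM under SD (-0.72, standard error 0.10, adjusted p = 6.70e-05). The groups did not overlap, and Ace was also called without a1 (-0.76). In phosphate, calcium and vitamin D handling 2 of 18 tested genes were called higher, Cyp24a1 and Slc34a3. Slc34a3, a phosphate carrier, had 45.3 ± 17.1 FPM under SD, with 15.9 FPM in a9, and 83.3 ± 10.7 FPM under HFD (0.88, adjusted p = 0.0349), and its adjusted p was 0.0771 without a1. In the distal convoluted tubule 1 of 10 tested markers was called, Pvalb, the calcium buffer parvalbumin. It was at 70.2, 80.9, 59.96, 71.7 and 58.9 FPM under HFD and at 15.1, 29.4, 23.5, 25.04 and 17.1 FPM under SD (1.63, adjusted p = 7.36e-04). Slc12a3, the defining transporter of that segment, had 944 ± 131 FPM under SD and 1187 ± 286 FPM under HFD (0.33, adjusted p = 0.354). Of the 17 collecting duct markers tested 0 were called by edgeR's test, also at an adjusted p under 0.05 alone, and 1 was called lower without a1.

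Of 25 tested tubular injury markers 2 were called higher, where 1.23% of all genes tested were, C3, the central complement component, which rose from 13.04 ± 2.07 to 40.6 ± 10.97 FPM (1.64, adjusted p = 7.09e-05), and Fgg, the fibrinogen gamma chain, which rose from 8.78 ± 2.69 to 23.1 ± 7.53 FPM (1.39, adjusted p = 0.00184). The median log2 fold change of the 25 was 0.37, and 19 lay above 0, where 49.8% of all genes tested did. At an adjusted p under 0.05 alone, edgeR's test gave 4 of the 25, where 6.34% of all genes tested passed. The usual injury markers Havcr1 and Lcn2 were at 1.82 ± 0.508 and 1.98 ± 0.962 FPM under SD and at 3.51 ± 2.77 and 3.35 ± 1.87 FPM under HFD (adjusted p = 0.367 and 0.316). Of 36 tested matrix genes Col8a1 was called higher and Col5a2, a fibrillar collagen, lower (from 24.1 ± 4.29 to 11.3 ± 1.99 FPM, -1.1, adjusted p = 0.00241). With 2.16% of all genes tested called either way, called genes numbered 0 of 22 for macrophages and lymphocytes (median log2 fold change 0.27, 16 above 0), 0 of 31 for interferon responses (0.03), 0 of 15 for endothelium (0.13), 0 of 11 for smooth muscle and mesangium (0.10), 0 of 27 for the cell cycle (0.11) and 0 of 6 for red blood cells (0.16). At an adjusted p under 0.05 alone, edgeR's test gave 2 interferon response genes, 2 cell cycle genes and 0 in the other 4 lists. In the endothelium, where the deletion acts, Kdr was at 67.02 ± 12.6 FPM under SD and 73.99 ± 7.85 FPM under HFD and Emcn at 57.05 ± 9.43 and 61.2 ± 5.26 FPM. Of 16 podocyte markers Magi2 was called higher (0.67, adjusted p = 0.0213), with 15.6 FPM in a3. Its adjusted p was 0.0574 without a3, 0.0614 without a7 and 0.0535 without a9. Of 65 tested nuclear genes of the respiratory chain 0 were called, and 0 had an adjusted p under 0.05 by edgeR's test. Of the 65, 63 had a log2 fold change above 0, with a median of 0.14 (0.08 without a1) against -0.11 in WT. This was not shared by all HFD kidneys. The score of the list was -0.213 in a3, 0.128 to 0.287 in the other HFD kidneys and -0.082 to 0.083 in the SD kidneys.

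Genes of fat cells differed widely between single kidneys. Of 14 tested adipocyte markers 13 had a log2 fold change above 0, with a median of 1.33, and Lep and Pck1 were called higher, the second of which proximal tubules also make in quantity. Lep, the hormone leptin of fat cells, was at 5.16, 14.9, 48.7, 12.2 and 0.237 FPM under HFD and at 0, 0, 0.698, 0.294 and 0 FPM under SD (6.32, standard error 1.35, adjusted p = 0.00727). The groups overlapped, since a5 lay below a8 and a9. Its fold is uncertain, with 22 raw counts over the SD libraries. The defining marker Adipoq followed the same order within HFD, with 14.9 FPM in a3 and 0.427 FPM in a5, and overlapped between diets (2.34, adjusted p = 0.209). None of the 13 markers other than Pck1 was at 0 in all 10 kidneys, and their sum was 109.5 to 375.5 FPM under HFD and 84.7 to 167.2 FPM under SD. The part of fat cells in the Lep result was not tested. With the adipocyte score as covariate, an alternative chosen after seeing the data, 307 genes were called in KO, 279 of them shared with the 344.

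Immediate-early genes were low in all HFD kidneys and high in 2 of the 5 SD kidneys. Their median log2 fold change was -2.60 over 21 genes, of which Gadd45g, a stress-induced growth arrest gene, was called (-2.28, adjusted p = 0.0455). Gadd45g was at 255 FPM in a8 and at most 96.03 FPM in the other SD libraries, and it lost its call in 8 of the 10 fits without 1 library (-1.56 and adjusted p = 0.158 without a8). Fos was at 83.4 and 91.1 FPM in a8 and a9 and between 0.355 and 4.75 FPM in the other 8 kidneys. The stress-induced kinase gene Plk2 (-1.1, adjusted p = 0.0349) and Fgfbp1, which encodes a binding protein of fibroblast growth factors (-1.28, adjusted p = 0.0467), lost their calls without a1 (adjusted p = 0.0722 and 0.0743) and were also highest in a9, at 50.3 and 12.01 FPM. Without a9 their log2 fold changes were -0.56 and -0.67. Of 19 core clock and clock output genes 0 were called by edgeR's test, also at an adjusted p under 0.05 alone, and the clock score ran from -1.08 to 1.53 within HFD and from -1.60 to 1.45 within SD. With this score as covariate 365 genes were called, 341 of them shared.

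**Figure D4:**
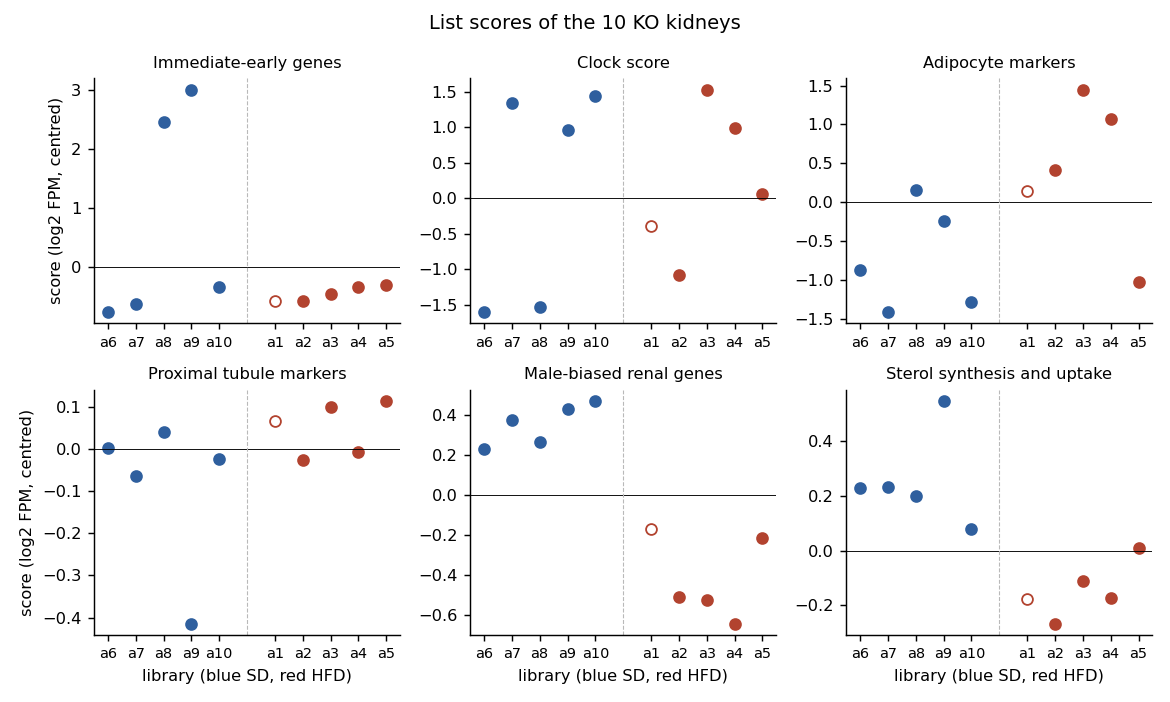
Scores of 6 gene lists in each of the 10 KO kidneys, as mean log2(FPM + 0.5) centred on all 20 kidneys, SD in blue, HFD in red and a1 as an open circle; the clock score is the genes high with Arntl minus those low with Arntl. Libraries a8 and a9 stand apart for immediate-early genes and a9 for proximal tubule markers, the clock and adipocyte scores overlap between diets, and the male-biased and sterol scores do not.

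The HFD effect in KO was then set beside that in WT kidneys, in which 347 genes were called (2.18%). The interaction of diet and genotype passed an adjusted p of 0.05 in 0 genes by edgeR's quasi-likelihood test, and in 0 by the DESeq2 Wald and edgeR likelihood ratio tests. Before adjustment 285 genes (1.79%) were under 0.05, or 538 of 16043 (3.35%) without a1 and a12. Without a12 the WT comparison had no near-identical library in common with KO, and 386 genes were called in it (2.4%). Of the 344 KO genes 239 were among them in the same direction, 69.5% of the KO genes and 61.9% of the WT genes. For Gulo the log2 fold change was 6.52 in KO and 5.01 in WT, a difference of 1.5 (standard error 0.75, adjusted p = 1.00). Egf and Slc12a1 were called in KO and not in WT. The difference between genotypes was -0.29 for Egf (standard error 0.21), from -0.59 in KO and -0.31 in WT, and -0.41 for Slc12a1 (standard error 0.22), from -0.62 and -0.21. For both the adjusted interaction p was 1.00.

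Among genes called in KO, the 3 smallest interaction p-values were those of Sv2a, Kcnt1 and Coro6. Sv2a, a synaptic vesicle glycoprotein, rose from 23.8 ± 2.36 to 42.2 ± 5.26 FPM in KO (0.83, adjusted p = 1.78e-05), against a log2 fold change of 1.21 in WT, a difference of -0.38 (standard error 0.14). Kcnt1, a sodium-activated potassium channel, was at 12.8, 11.2, 7.09, 12.9 and 12.5 FPM under HFD and at 36.5, 24.6, 22.8, 37.9 and 18.6 FPM under SD in KO (-1.31, adjusted p = 0.00111), against -0.43 in WT, a difference of -0.88 (standard error 0.32). The groups did not overlap in KO. Coro6, a coronin that binds actin, fell from 8.48 ± 1.34 to 3.45 ± 0.669 FPM in KO (-1.3, adjusted p = 9.63e-05), against -0.67 in WT, a difference of -0.63 (standard error 0.25). In all 3 genes the adjusted interaction p was 1.00, and 14 of the 344 called genes had an interaction p under 0.05 before adjustment.

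**Figure D5:**
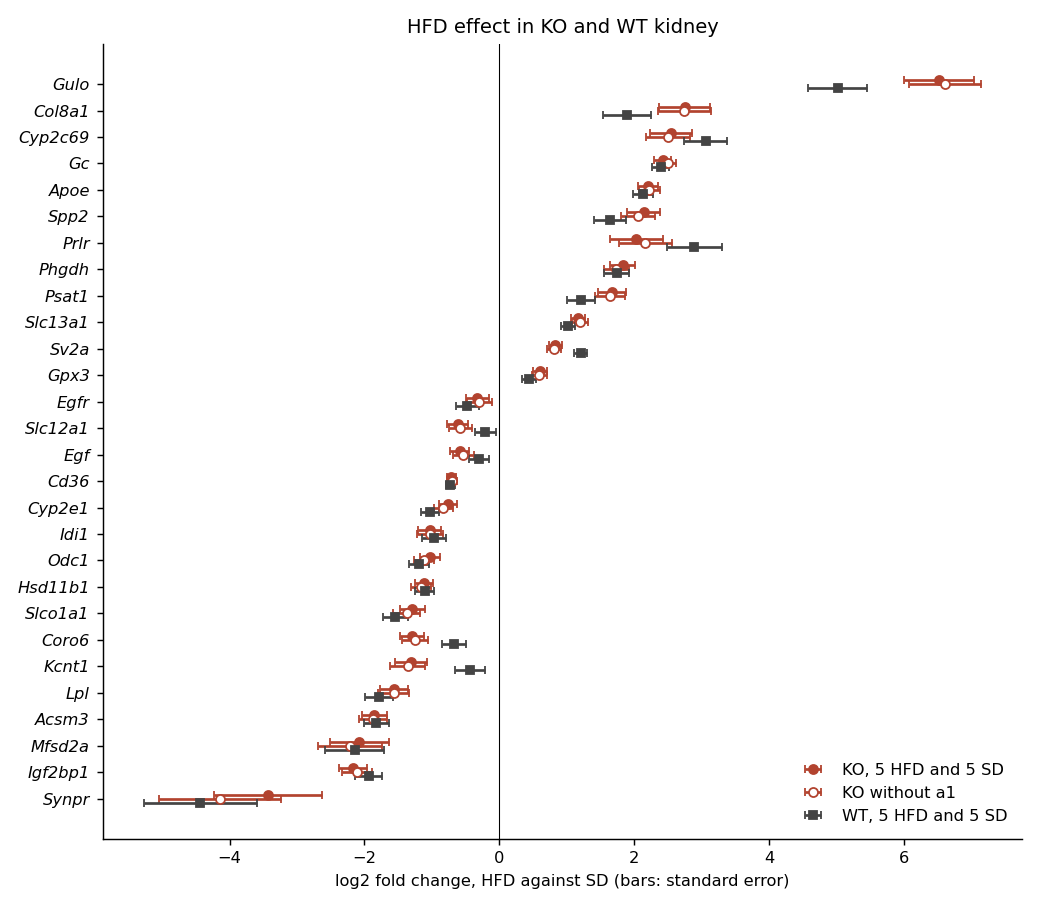
Log2 fold change of HFD against SD for 28 named genes in KO kidneys (filled red), in KO without a1 (open red) and in WT kidneys (dark squares), with standard errors of the edgeR fit as bars. In all 28 genes KO and WT lie on the same side of 0, and leaving out a1 moves no KO value by more than its standard error.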

How the data were processed

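Kidneys of EC-EGFR-KO and EC-EGFR-WT mice were profiled by RNA-seq of oligo(dT)-selected total RNA, paired-end. The authors deposited raw gene counts per library. The submitters' notes name HISAT2 2.1.0 and featureCounts with mm10, and the study's methods name TopHat2. Strand setting and treatment of reads with several positions are not given in the sources used here. The table held 55382 genes, of which 55141 IDs matched GENCODE M21 symbols. Groups were taken from the labels.

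All 20 kidneys were fitted together with edgeR 4.0.16 (R 4.3.3), using TMM normalization, filterByExpr and robust quasi-likelihood tests with Benjamini-Hochberg adjustment, in which the biological coefficient of variation was 22.3%. The standard error was taken from the fold change and its F statistic. Calls needed an adjusted p under 0.05, more than a 1.5-fold change and, with either diet, a mean above 5 FPM. Totals ran from 19643033 to 48788716 counts in the 10 KO libraries, and low genes such as Gulo rest on few counts, with intervals that cover counting error only. The labels list samples without naming the animal of each, so p-values measure the spread between these samples. Alternatives were other scalings, filters, tests (DESeq2 1.42.0), thresholds, covariates and left-out libraries.

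Members and gene lists were chosen with earlier results of these data known. Named genes were Egfr, the 12 largest non-overlapping changes each way that were also called without a1, the 6 largest differences in FPM, up to 4 called members of each list (2 of the highest level where none was called), the 3 smallest interaction p-values, and genes losing their call without a1 or without a8 and a9. A few of the genes so chosen are not given. Defining markers and other pathway genes, such as Fasn, Cpt1a, Lcn2 and Slc22a6, were added after their values were seen.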

Additional observations from a re-analysis of the deposited data

Results flagged for a closer look

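A library was picked out where it lay far from the other 4 of its diet group, by Dixon's criterion of a gap over 0.71 of the range. This held in 22 of 252 groups of 5, and 12 of the 22 were the SD library a9. A rate of 1 in 20 would give 12.6, but the 22 cannot be judged against it. Some genes were named because they lost their call without a1 or without a8 and a9. The list scores also share members with the named genes.

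Total counts were 48788716 in a1 and at most 22322767 in the other HFD libraries. In a9 the scores of cytochrome P450 enzymes (-0.271), gluconeogenesis and glucose transport (-0.28) and proximal tubule markers (-0.414) were the lowest of SD. Of single genes, a9 was lowest for Acot3 (5.25 FPM), Slc34a3 (15.9 FPM) and Spp2 (77.4 FPM). It was highest of SD for Fgfbp1 (12.0 FPM), Insig1 (146.9 FPM), Nrg1 (18.1 FPM), Plk2 (50.3 FPM), Slc5a10 (210.4 FPM) and Sqle (121.3 FPM).

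The SD library a8 was highest for Gadd45g (255.4 FPM), Mfsd2a (87.2 FPM) and Slc3a2 (204.5 FPM). The SD library a6 was highest for C4a (12.5 FPM) and Egf (1513 FPM). Among HFD libraries a3 was highest for the podocyte score (0.3), Egfr (60.5 FPM) and Mttp (52.7 FPM), and a2 for Ces1g (129.0 FPM). Their causes were not tested.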

How the results depend on the processing

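The 344 called genes became 1011 by the adjusted p alone and 123 at a fold change over 2, and over fits that left out 1 library the count was 298 (without a9) to 356 (without a10). Other tests, scalings, filters, level minimums and covariates gave 307 to 511. A fit of only the 10 KO kidneys gave 323, of which 308 were shared with the 344. The interaction count stayed at 0 in all fits. Single genes were followed over the 24 alternatives that kept the thresholds of a call. Of 85 called named genes 60 were called under each of these and 0 reversed. Of 2592 gene values 153 lost the call and 17 reversed. Fits without 1 library cost a call most often in Acot3, Pck1, Gadd45g and Slc7a12, each in 8 of 10.

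Egfr in KO against WT under HFD, 0.06, reversed to -0.0924 without KO HFD replicate a3 and to -0.09 without WT HFD replicate a15, with a range over left-out libraries of -0.0924 to 0.1378, and of -0.1189 to -0.0323 under SD. The other reversals were in genes not called. Without both near-identical libraries Atp5b, 0.02, was -0.012 and H2-D1, 0.02, was -0.029. With the immediate-early score as covariate the values were -0.0035 for Atp5b, 0.3816 for Bhlhe40, -0.1316 for Hba-a1 and -0.0481 for Hbb-bs. With the adipocyte score they were -0.0481 for H2-D1 and -0.0138 for Plvap. Without a8 and a9 Bhlhe40, -0.42, was 0.4704. Over left-out libraries Atp5b ran from -0.0119 to 0.0636, H2-D1 from -0.0543 to 0.0819, H2-K1 from -0.0506 to 0.1247, Hba-a1 from -0.0713 to 0.2614, Hbb-bs from -0.0357 to 0.316 and Plvap from -0.0008 to 0.1669. The cause was not tested.

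No paired analysis was possible because the compared groups share no replicate numbers. Depth limits Gulo, Lep and Synpr, which rest on few counts with at least 1 diet.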
